A study of Oryza sativa with 4 samples.

Results

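The genes described here are those whose transcripts were strongly lower in leaves of heat-developed seed (HDS) plants than in leaves of control seed (CS) plants of rice (Oryza sativa, cultivar Nipponbare). HDS plants were grown from seeds that had matured at 30 °C, and CS plants from seeds that had matured at 25 °C. Both kinds of plants then grew without heat treatment under natural conditions, and fully developed leaves were taken 55 days after sowing for RNA sequencing. There were 2 HDS and 2 CS libraries, each from a single plant as far as the methods of the study state. Genes were chosen on CPM, the expected count of a gene per 1000000 counts of its library. A gene was eligible if its count was whole in all 4 libraries and at least 20 in both CS libraries, and it was taken if its smaller CS value was at least 2.5 times its larger HDS value. This gave 74 genes, which is 0.502% of the 14744 eligible genes and 0.195% of the 37858 genes listed. The rule used the HDS and CS levels themselves, so every value set between HDS and CS plants for these genes, counts past a test included, is a description and no independent evidence of a difference. In the opposite direction, 140 of 15176 genes (0.923%) met the mirrored rule, with HDS in the place of CS.

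The study asked whether the temperature at which a seed matures is still visible in the plant that grows from it. DNA methylation is a mark that can be copied through cell divisions, and in plants methylated cytosines near the start of a gene often go along with a lower transcript level. A transcript level in a whole leaf is an average over mesophyll, epidermis, guard cells and vascular tissue. A lower value in such a bulk sample cannot be told apart from fewer cells that make the transcript. The identifiers are those of the Rice Annotation Project, in which the digits before the g give the chromosome and those after it run in order along the chromosome. None of the sources used here pairs any of the 74 identifiers with a gene name or a product, so the genes are described by identifier, level and position. This is a limit of the sources and does not mean that the genes are unnamed. The libraries held 17298384 and 16605260 expected counts in HDS plants, against 15444235 and 17214538 in CS plants. The study measured OsSPCH1, OsSPCH2, OsMUTE and OsEPF1 in developing seedlings as genes of stomatal development. In the leaves sequenced here they had 0 counts in all 4 libraries. A count of 0 still allows up to 3 counts in a library of this depth. OsFAMA, which acts late in guard cell formation, had 31 and 25 counts in HDS plants and 24 and 31 in CS plants.

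As a group, the 74 genes held 945 and 883 CPM in the HDS libraries, against 3507 and 3509 CPM in the CS libraries. These sums average 914 ± 43.9 CPM in HDS plants and 3508 ± 1.63 CPM in CS plants (SD, n = 2 each), so the summed HDS level was 26.1% of the CS level. The CS libraries were nearly equal in the sum although single genes differed between them. The median gene of the group had 3.32 and 2.65 CPM in the HDS libraries, against 23.3 and 21.6 CPM in the CS libraries. The median eligible gene had 19.9 and 19.1 CPM in the HDS libraries, against 17.9 and 19.0 CPM in the CS libraries. The group thus had CS levels near those of the typical eligible gene. By edgeR, the fitted log2 fold changes of HDS over CS plants had a median of -2.10 and ran from -5.98 to -1.46, beside a median of 0.01 over all genes tested.

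**Figure D1:**
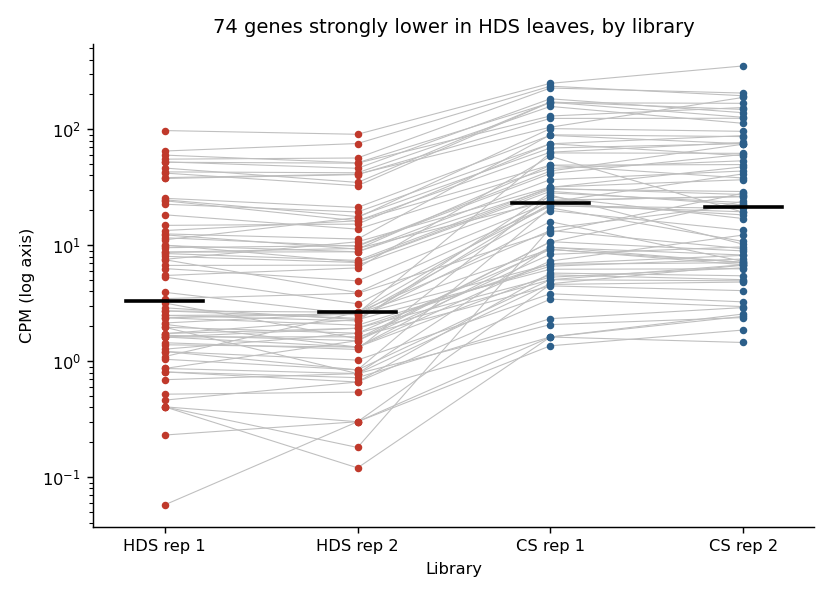
CPM of each of the 74 genes in the 4 libraries, on a log axis, with HDS libraries in red and CS libraries in blue. Thin lines join the values of a gene and the bars are medians, 3.32 and 2.65 CPM in the HDS libraries against 23.3 and 21.6 CPM in the CS libraries.

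Most genes of the group kept a clear transcript level in HDS plants. The mean HDS level was between 1.60% and 38.0% of the mean CS level, with a median of 24.5% and quartiles at 16.2% and 30.2%. It was under 10% in 7 genes, from 10% to 20% in 23 genes, from 20% to 30% in 23 genes, and 30% or more in 21 genes. The rule sets the upper end of this range. In 3 genes an HDS library had 3 counts or fewer, and in 0 genes did both. This holds only for genes with whole counts. Among genes left out because their counts were not whole, Os06g0102725 and Os11g0107425 had 0 counts in both HDS libraries. Os01g0644500, left out likewise, had an HDS level of 0.85% of CS. The 19 genes with a mean of 1000 counts or more in CS plants had HDS levels between 3.98% and 36.2% of CS. The 16 genes with a mean under 100 counts had HDS levels between 7.49% and 38.0%. Genes of high and of low abundance both ranged from small residual levels to values near the limit of the rule. Their medians differed, at 28.5% in the 19 abundant genes and 21.6% in the 16 with few counts.

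**Figure D2:**
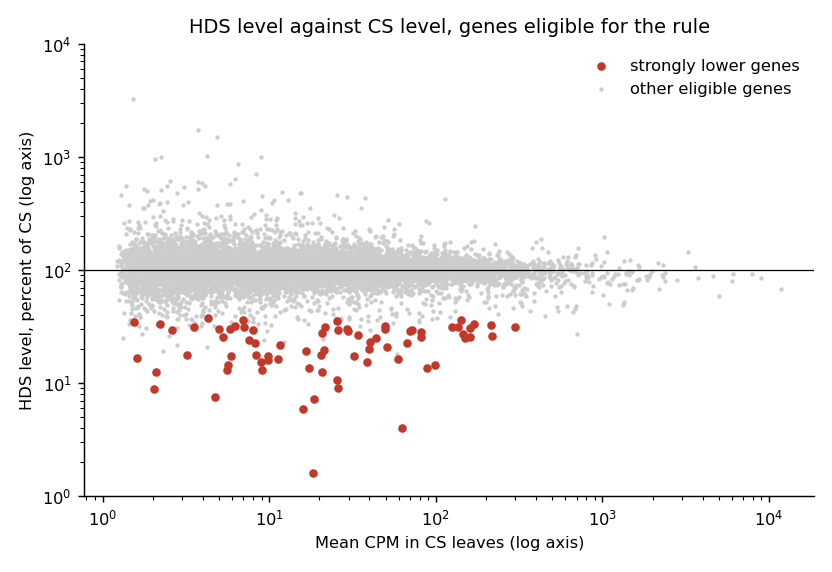
Mean HDS level in percent of the mean CS level against the mean CS level in CPM, both on log axes, for the 74 genes (red) and the other eligible genes (grey). The 74 genes lie between 1.60% and 38.0%, while the median over all eligible genes is 105%.

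Within the group, the lowest residual level was that of Os02g0677300 on chromosome 2. It had 0.405 and 0.181 CPM in the HDS libraries, against 14.1 and 22.4 CPM in the CS libraries. Over the libraries these are 10 counts in HDS plants and 603 in CS plants, and the HDS level was 1.60% of CS. A 95% Clopper-Pearson interval on the pooled counts runs from 0.762% to 2.96% and covers counting error only. Its fitted log2 fold change was -5.98, and -5.52 with a prior count of 2. The standard error of 0.49 belongs to log2 CPM with that prior count. The fitted value was -6.65 without HDS replicate 1 and -5.54 without HDS replicate 2. Os01g0597600 on chromosome 1 came next, with 2.37 and 2.59 CPM in the HDS libraries against 62.6 and 62.1 CPM in the CS libraries. Replicates of this gene were close in both treatments, and the HDS level was 3.98% of CS (counting interval 3.16% to 4.94%). It was the gene of lowest residual level among the 19 abundant ones.

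Os09g0457900 on chromosome 9 had 1.04 and 0.843 CPM in the HDS libraries, against 21.0 and 10.8 CPM in the CS libraries. Os01g0850700 on chromosome 1 had 1.45 and 1.26 CPM in the HDS libraries, against 27.1 and 10.2 CPM in the CS libraries. In both genes the HDS libraries were close to each other, whereas CS replicate 1 was well above CS replicate 2. Without CS replicate 1, the fitted log2 fold change of Os09g0457900 was -3.54 in place of -4.15, and that of Os01g0850700 was -2.94 in place of -3.87. Os03g0678800 on chromosome 3 had 2.49 and 2.23 CPM in the HDS libraries, against 28.3 and 23.4 CPM in the CS libraries. Os01g0699600 on chromosome 1 had 2.72 and 2.65 CPM in the HDS libraries, against 24.5 and 26.2 CPM in the CS libraries. These genes stood at 9.13% and 10.6% of the CS level, with little spread between replicates. Os03g0152000, also on chromosome 3, combined a high CS level with a low residual, at 12.5 and 11.3 CPM in the HDS libraries against 89.7 and 86.6 CPM in the CS libraries. Os01g0821600, Os03g0734500 and Os02g0540700 had HDS levels of 12.5%, 13.1% and 13.7% of CS. Of these, Os02g0540700 was the least even, with 3.18 and 1.57 CPM in the HDS libraries against 10.7 and 24.0 CPM in the CS libraries. Its fitted log2 fold change was -2.30 without CS replicate 2 in place of -2.92. A pair of genes with fewer counts, Os07g0566150 and Os12g0510750, also had HDS levels under 10% of CS. Os12g0510750 rested on 1 and 5 counts in the HDS libraries, against 25 and 42 counts in the CS libraries.

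The 10 most abundant genes made up 51.2% of the summed CS level of the group. They had 552 and 522 CPM together in the HDS libraries, against 1801 and 1790 CPM in the CS libraries. The first was Os01g0570800 on chromosome 1, with 97.6 and 90.6 CPM in the HDS libraries against 249 and 352 CPM in the CS libraries. Os01g0384800 had 65.0 and 75.5 CPM in the HDS libraries, against 236 and 195 CPM in the CS libraries. Os01g0934100 had 55.3 and 56.6 CPM in the HDS libraries, against 227 and 205 CPM in the CS libraries. All of these lie on chromosome 1, and in each the HDS libraries differed from each other by less than the CS libraries did. Os03g0292100 had 59.9 and 51.5 CPM in the HDS libraries, against 170 and 168 CPM in the CS libraries. Os04g0685300 had 52.4 and 46.1 CPM in the HDS libraries, against 183 and 139 CPM in the CS libraries. Os01g0582600 had 46.4 and 34.9 CPM in the HDS libraries, against 172 and 149 CPM in the CS libraries. HDS levels of these genes were between 25.3% and 33.1% of CS. Os06g0683400 had 42.0 and 32.6 CPM in the HDS libraries, against 171 and 127 CPM in the CS libraries. Os08g0386200 had 52.0 and 51.1 CPM in the HDS libraries, against 130 and 154 CPM in the CS libraries. Os07g0545800 had 38.3 and 41.1 CPM in the HDS libraries, against 104 and 188 CPM in the CS libraries. It had the widest gap between CS libraries among the abundant genes, and its fitted log2 fold change was -1.53 without CS replicate 2 in place of -1.94. The remaining abundant gene, Os06g0133400, is described with its neighbour on that chromosome. Apart from these 10 genes, the 10 of lowest residual level with at least 100 counts, those at the limit of the rule and those lying near each other, 44 genes remain. Their mean levels ran from 0.179 to 23.3 CPM in HDS plants and from 1.54 to 81.9 CPM in CS plants, and their HDS levels were 7.49% to 35.9% of CS.

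Within a treatment, the genes did not lean to the same library throughout. CS replicate 2 was above CS replicate 1 in 35 genes (47.3%), beside 57.9% of all eligible genes, and below it in 39. In 15 genes (20.3%) the CS libraries were more than 1.5-fold apart, 10 with CS replicate 2 higher and 5 with CS replicate 1 higher, beside 15.7% of all eligible genes. The widest gaps among these were in Os01g0720500, with 58.5 and 19.3 CPM in CS replicates 1 and 2, and in Os01g0850700 and Os02g0540700. In the HDS libraries, replicate 1 was higher in 45 genes (60.8%), beside 54.9% of all eligible genes. The HDS libraries were more than 1.5-fold apart in 12 genes (16.2%), 8 with replicate 1 higher, beside 6.75% of all eligible genes. The widest gap was that of Os12g0510750, followed by Os02g0667300, which had 0.298 times the CPM in HDS replicate 2 of HDS replicate 1. The counts of those 12 genes in HDS libraries were between 1 and 288, and 17 of the 74 genes had fewer than 20 counts in an HDS library. The part that few counts have in this spread was not tested.

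**Figure D3:**
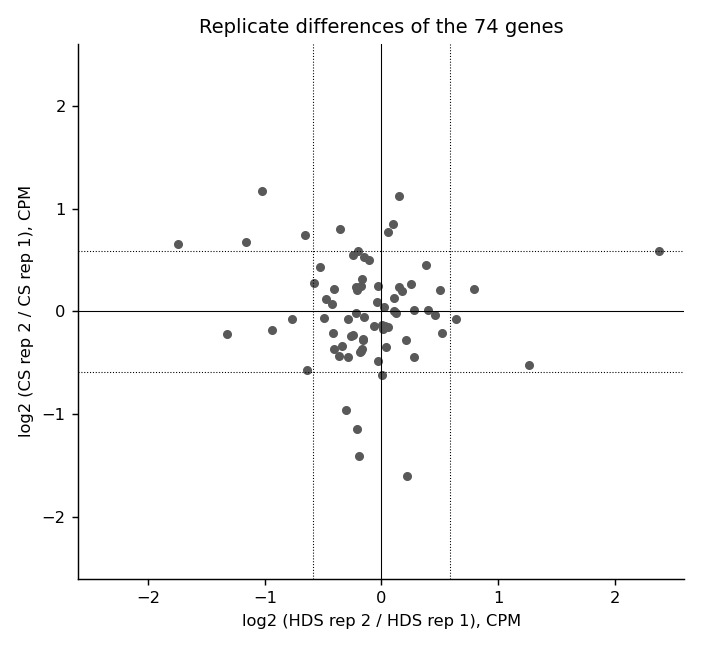
Log2 ratio of CPM between the HDS replicates (horizontal axis) and between the CS replicates (vertical axis), 1 point for each of the 74 genes, with dotted lines at 1.5-fold. Points lie on all sides of 0, with 12 genes outside the dotted lines for HDS and 15 for CS.

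The limit of the rule does not fall in a gap of the data. Just inside it were Os07g0603300, Os08g0386200 and Os02g0584700, whose smaller CS value was 2.501, 2.505 and 2.512 times the larger HDS value. Just outside were Os11g0664400, Os11g0151400 and Os02g0681200, at 2.489, 2.481 and 2.478 times. Both genes of chromosome 11 just outside had few counts, with 9 and 7 in HDS libraries against 20 and 37 in CS libraries for Os11g0664400. Os11g0151400 had 9 and 13 counts in HDS libraries, against 30 and 53 in CS libraries. With a single library of a treatment the rule asks less, and it took 132 genes without CS replicate 1, 154 without CS replicate 2, 133 without HDS replicate 1 and 104 without HDS replicate 2. All 74 genes are among them by construction. A further 24 genes met the limits on counts and fold but had counts that were not whole, which arises when RSEM divides reads among similar genes.

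The 74 genes lay on 11 of the 12 chromosomes. Chromosome 1 held 19 of them (25.7%), beside 14.3% of the eligible genes, and chromosome 2 held 11 (14.9%), beside 11.9%. Chromosome 5 held 8 (10.8%), beside 8.41% of the eligible genes, and chromosome 10 held 5 (6.76%), beside 4.86%. Chromosomes 4, 9 and 12 held 7, 4 and 3 genes (9.46%, 5.41% and 4.05%), beside 8.72%, 5.54% and 5.11%. Chromosome 3 held 8 genes (10.8%), beside 13.6% of the eligible genes, and chromosomes 6, 7 and 8 held 3 each, beside 8.15%, 7.79% and 6.66%. Chromosome 11 held 0 of them, beside 4.95% of the eligible genes (730). This depends on where the rule cuts. Os11g0664400 and Os11g0151400 lay just outside the fold limit, and Os11g0107425 met it but had counts that were not whole. For the mirrored rule, chromosome 1 held 17 of the 140 genes that were higher in HDS plants, beside 2171 of the 15176 genes eligible for it. Chromosome 11 held 11 of the 140, beside 756 of the 15176. When the eligible genes of each chromosome were divided at their middle in table order, a division chosen after the identifiers had been seen, 48 of the 74 genes (64.9%) lay after the middle. The same was found for 63.6% of the genes that met the mirrored rule, so this share is not particular to the lower genes. These are shares of the genes, and no test was made of how they spread over the genome.

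**Figure D4:**
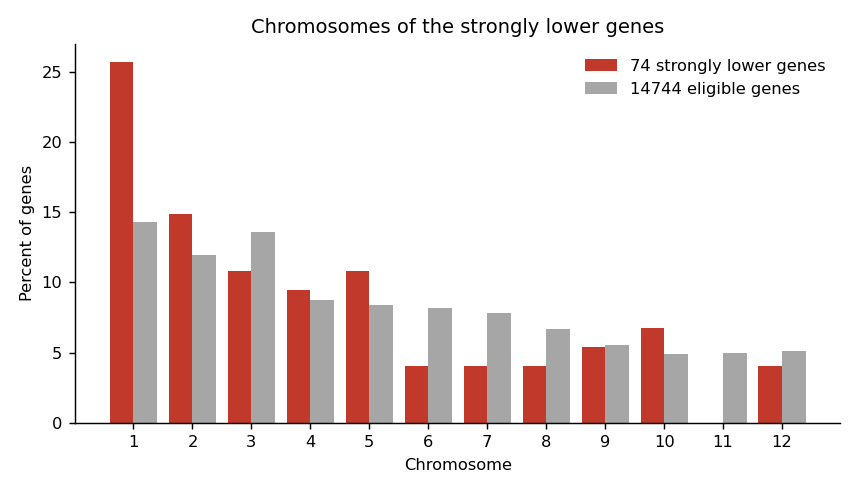
Percent of the 74 strongly lower genes (red) and of the 14744 eligible genes (grey) on each chromosome. Chromosome 1 holds 25.7% of the lower genes and 14.3% of the eligible genes. Chromosome 11 holds 0 of the lower genes and 4.95% of the eligible genes.

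Where genes of the group lay close together on a chromosome, they did so in pairs. In plant genomes neighbouring genes can be copies of each other or can share a stretch of chromatin, so the order along a chromosome is of interest beside the level. Of the 74 genes, 10 had another of the group within 10 rows of the table, forming 5 pairs on chromosomes 2, 5, 6, 9 and 10, and 3 of these pairs were direct neighbours. Of the 557 eligible genes within 10 rows of a gene of the group, these 10 were themselves in the group (1.80%), beside 0.502% of all eligible genes. The count was 20 of 98 genes when whole counts were not required. It was 26 of 132 without CS replicate 1 and 30 of 154 without CS replicate 2. Without HDS replicate 1 it was 24 of 133, and without HDS replicate 2 it was 16 of 104. These lists are longer than the group, which leaves more room for neighbours. Of the 10 genes added when whole counts were not required, 6 were genes of chromosome 2 with identical counts in each library. Os01g0186900, Os01g0186950 and Os01g0699450, also among them, had counts that were not whole. With a fold limit of 2, which takes 132 genes like the rule without CS replicate 1, the count was 12.

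The pair on chromosome 9 had the largest difference. Os09g0522000 had 11.2 and 17.3 CPM in the HDS libraries, against 101 and 96.1 CPM in the CS libraries. Its neighbour Os09g0522100 had 1.10 and 2.65 CPM in the HDS libraries, against 13.4 and 9.35 CPM in the CS libraries. The HDS levels were 14.4% and 16.5% of CS, and in both genes HDS replicate 2 was above HDS replicate 1. The fitted log2 fold change of Os09g0522100 was -3.45 without HDS replicate 2 and -2.17 without HDS replicate 1, in place of -2.68. The next gene, Os09g0522200, had 1582 and 2763 counts in the HDS libraries, against 1020 and 795 counts in the CS libraries. Its fitted log2 fold change was 1.12 (standard error 0.54), opposite in sign to those of the pair, and it too was higher in HDS replicate 2. The gene before the pair, Os09g0521900, had a log2 fold change of 0.11 (standard error 0.18). The lower levels on chromosome 9 thus covered these neighbouring genes and did not extend to the gene on either side.

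The pair on chromosome 2 was nearly equal in residual level. Os02g0584700 had 18.3 and 13.8 CPM in the HDS libraries, against 46.0 and 53.6 CPM in the CS libraries. Os02g0584800 had 37.7 and 40.7 CPM in the HDS libraries, against 124 and 125 CPM in the CS libraries. Their HDS levels were 32.2% and 31.5% of CS. The 3 tested genes that follow, Os02g0584900, Os02g0585100 and Os02g0585200, had log2 fold changes of -0.66, -0.94 and -0.82 (standard errors 0.28, 0.19 and 0.17). Their values were of the same sign as the pair's and smaller, and 0 of the 8 other tested genes around this pair had an adjusted p under 0.05 for a lower level in edgeR's quasi-likelihood test. The median log2 fold change of those 8 genes was -0.48, whereas it lay between -0.01 and 0.15 around the other pairs.

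On chromosome 6, Os06g0133400 was among the most abundant genes, with 43.0 and 42.2 CPM in the HDS libraries against 158 and 113 CPM in the CS libraries. Next to it, Os06g0133500 had 1.73 and 1.93 CPM in the HDS libraries, against 6.93 and 8.19 CPM in the CS libraries. The HDS levels were 31.5% and 24.2% of CS, although the neighbours differed widely in CPM, which are not scaled for gene length. The gene after them, Os06g0133600, had few reads, with 8 and 10 counts in the HDS libraries against 17 and 15 counts in the CS libraries, a log2 fold change of -0.95 (standard error 0.25). On chromosome 5, Os05g0181300 had 1.73 and 2.29 CPM in the HDS libraries against 6.22 and 6.27 CPM in the CS libraries. Os05g0181700 had 13.4 and 16.3 CPM in the HDS libraries, against 49.1 and 49.7 CPM in the CS libraries. The CS libraries agreed closely for this pair, and the HDS levels were 32.2% and 30.0% of CS. The gene between them, Os05g0181650, had 35 and 29 counts in the HDS libraries, against 36 and 56 counts in the CS libraries. On chromosome 10, Os10g0562900 and Os10g0563800 stood 10 rows apart, at 22.7% and 29.5% of the CS level. The 7 tested genes between them had log2 fold changes from -0.25 for Os10g0563300 (standard error 0.10) to 0.43 for Os10g0563500 (standard error 0.37), so the lower levels at this place were not continuous.

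**Figure D5:**
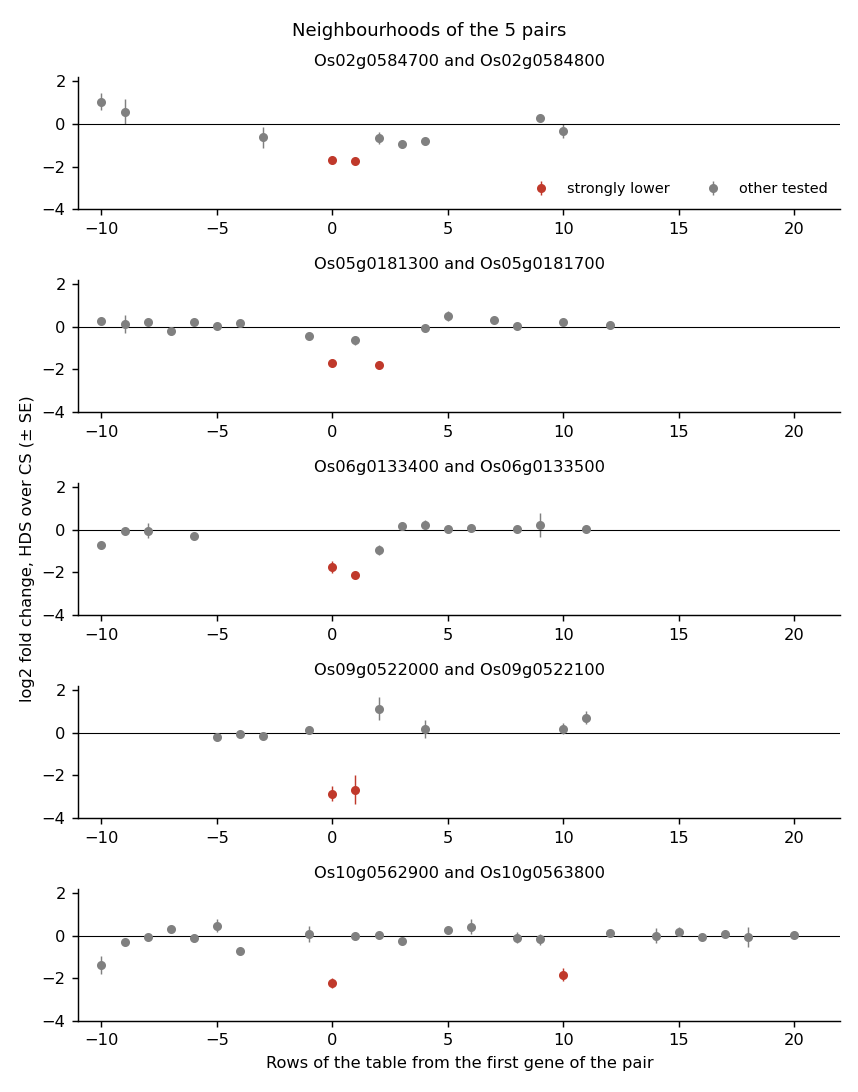
Fitted log2 fold change of HDS over CS plants for tested genes within 10 rows of each pair, by row from the first gene of the pair. Bars are standard errors from log2 CPM of the replicates (n = 2 libraries each). The pairs (red) lie between -2.87 and -1.70, and most other tested genes (grey) lie near 0.

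Direct neighbours of the group were then examined as a whole. Of 141 genes in the row before or after a gene of the group and not in it, 79 were tested by edgeR, with a median log2 fold change of -0.04. In the quasi-likelihood fit of edgeR, 1 of these was called lower at an adjusted p under 0.05 (1.27%, beside 0.451% of all 22184 genes tested) and 0 were called higher (beside 0.248%). This gene was Os02g0739100, with 753 and 697 counts in the HDS libraries against 1168 and 1565 counts in the CS libraries, next to Os02g0739400 of the group. A log2 fold change under -1 was found in 5 of the 79 genes (6.33%), beside 2.49% of all genes tested. Besides Os02g0739100, these had few or uneven counts. Os01g0821300 had 8 and 10 counts in the HDS libraries, against 30 and 21 in the CS libraries. Os01g0905300 had 24 and 26 against 39 and 117, and Os01g0631700 had 36 and 32 against 81 and 45. Os03g0310900 had counts that were not whole. In all, 44 of the 79 neighbours (55.7%) had a log2 fold change below 0, beside 49.1% of all genes tested.

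Finally, the spread between replicates was set against the differences that chose the genes. In the quasi-likelihood fit of edgeR, 50 of the 74 genes had a Benjamini-Hochberg adjusted p under 0.05, where 0.451% of all genes tested were called lower. The study called genes with exactTest of edgeR, at a raw P under 0.05 together with an absolute log2 fold change of at least 0.37. All 74 genes met these criteria, where 3.7% of all genes tested were called lower. As the same contrast chose the genes, these counts only describe how many differences were large against the replicate spread. The 24 genes that did not pass the quasi-likelihood test had a median of 99 counts in CS plants, against 657 in the 50 that did. Where 1 library was left out, the lone library of a treatment was taken to vary like those of the other treatment. Counts past the quasi-likelihood test in such fits are therefore given only as a range further below, and nothing is concluded from them.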

How the data were processed

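Leaf RNA of 2 HDS and 2 CS plants had been sequenced. The authors deposited expected counts per gene, estimated with RSEM and not normalized. The submitters' processing notes also name FastQC 0.11.7, Trimmomatic, Bowtie2, edgeR 3.26.3 and the build IRGSP-1.0. The labels name a TruSeq Stranded kit, whereas the paper names a NEBNext directional kit. Reads that fit several genes are divided by RSEM, so genes with counts that were not whole were left out by the rule.

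CPM were scaled by column sums. Counts were rounded for edgeR 4.0.16 and DESeq2 1.42.0 in R 4.3.3. The quasi-likelihood test used TMM and filterByExpr on 22184 genes, and exactTest used 29698 genes with at least 1 count. Both were also run on counts simulated from these same libraries, a check of the code that gives no error rate for the real data. Standard errors come from log2 CPM with a prior count of 2, while the fitted log2 fold changes beside them used a smaller prior count. With 2 libraries per treatment and 15444235 to 17298384 counts per library, 1 library can decide a value.

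The genes, the rule and the alternatives were chosen with earlier results of these data known. Genes named are the 10 most abundant in CS plants, the 10 of lowest residual level with a mean of at least 100 counts in CS plants, those within 10 rows of each other, and 3 on each side of the limit. Others were named after their values were seen. Of the 74 identifiers, 0 are paired with a name in the RefSeq table used here, so gene classes, promoter motifs, tissue markers and sequences were not analysed here. Only 1 row of that table holds an identifier of the Rice Annotation Project. The lookup thus could not have named the genes, and it does not show that they are unnamed. Alternatives were other scalings, filters, tests, limits and windows, a replicate block, and each library left out.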

Additional observations from a re-analysis of the deposited data

How the results depend on the processing

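The number of strongly lower genes was 132 with a fold limit of 2, 22 with a limit of 4, and 153 when mean CPM were compared in place of the nearest libraries. It was 104 to 154 with each library left out, and between 57 and 98 under the other scalings, count limits and without the need for whole counts. Those past edgeR's quasi-likelihood test were 27 to 68 with each library left out, and lower calls over all genes tested moved in the same direction. In those fits a treatment has a lone library, so these counts cannot show stability. Under other normalizations and filters this test took 42 to 67 of the 74 genes, beside 72 to 204 lower calls over all genes tested. The Wald test of DESeq2 took 67, beside 275 lower calls. With Benjamini-Hochberg adjustment exactTest took 72, beside 330 lower calls. The median HDS level was 23.1% of CS with DESeq2 size factors, 30.0% for the larger HDS over the smaller CS library, and 21.9% to 25.7% with each library left out. Genes with another within 10 rows were 20 of 98 when whole counts were not required. They were 16 to 30 with each library left out, from lists of 104 to 154 genes. With other windows they were 8 to 12 of 74, and with a fold limit of 2 they were 12 of 132. All 74 passed the exactTest criteria under the other normalizations and filterByExpr, 72 after adjustment, and 72 to 74 with each library left out. The median log2 fold change of the 30 named genes was between -2.19 and -1.95, and its sign is fixed by the rule, so it says nothing of stability. TMM in place of column sums moved the median log2 difference of eligible genes to -0.00 where it had been 0.07.

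Replicate numbers did not mark shared plants or batches in the labels, and with 2 pairs they cannot be shown to pair the libraries (r = 0.00396 between deviations of the libraries numbered 1, across 22184 genes). With a replicate block, 67 of the 74 genes passed the quasi-likelihood test in place of 50. Lower calls over all genes tested rose as well, to 238 from 100.

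With few counts in HDS plants, small residual levels are imprecise, and depth limits what can be said below 3 counts.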

Other observations

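Some genes met the limits on counts and fold but shared reads with other genes, so that their counts were not whole. Os07g0680600 on chromosome 7 had 503 and 537 expected counts in the HDS libraries, against 3386 and 4047 in the CS libraries, an HDS level of 13.5% of CS. Os01g0186900 on chromosome 1 had 562 and 535 expected counts in the HDS libraries, against 3897 and 4251 in the CS libraries. The next gene listed, Os01g0186950, had 167 and 156 expected counts in the HDS libraries, against 779 and 1052 in the CS libraries. In addition, 6 genes of chromosome 2 from Os02g0559800 to Os02g0561800 had identical values, with 124 and 85.8 expected counts each in the HDS libraries against 438 and 461 in the CS libraries. With equal values in all 4 libraries, these cannot be told apart as separate measurements. Summed over the 6 genes, there were 746 and 515 expected counts in the HDS libraries, against 2630 and 2764 in the CS libraries. The lowest HDS levels were those of genes with hardly any HDS counts. Os06g0102725 had 0 and 0 expected counts in the HDS libraries, against 249 and 43.7 in the CS libraries. Os11g0107425 had 0 and 0 against 28.6 and 23.1, and Os01g0644500 had 0.26 and 0.65 against 50 and 54. All others left out in this way had HDS levels of 7.61% to 30.3% of CS. The genes named here were chosen after their values had been seen.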
